A study of Mus musculus with 35 samples.

Results

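The regions described here were those whose ATAC-seq level in mouse embryonic fibroblasts (MEFs) was higher with every treatment containing AE than in both comparison groups. They were taken from the merged table of RPKM (read number per kilobase of region, scaled for library depth), as log2(RPKM + 1) minus the median of each column. The score of a region was the lowest of AE, 6FAE, CFAE, C6AE and C6FAE minus the higher of Basal and Ctr, and the 500 regions of highest score were taken of 35931 on chromosomes 1 to 19. Each treatment has 1 merged column, so these levels have no replicate error, and the differences that chose the regions are given as a description with no test. The score of the last region taken was 0.29, a 1.23-fold difference, so the regions are called by the rule, as regions higher with AE, and not as regions newly opened.

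MEFs were sampled on day 4 of chemical reprogramming toward extraembryonic endoderm-like cells. The letters stand for CHIR99021 (C), the compound that the paper calls by a number and that is called compound 6 here (6), Forskolin (F), AM580 (A) and EPZ004777 (E). C6FAE held all of these agents, 6FAE, CFAE and C6AE each lacked 1 of C, 6 and F, and AE held none of those 3. The sources used here do not define Basal, and Ctr is the control of the ATAC-seq. ATAC-seq had 2 libraries per treatment, and ChIP-seq of H3K4me3 and H3K27me3 had 1 library per treatment and mark. No label says that the libraries came from separate cultures. The paper calls the 2 ATAC-seq libraries of its control, and the 2 of its C6FAE-treated cells, biological repeats. The 3 ChIP-seq samples titled as control but labelled C6FAE were not used. Every AE-containing treatment held A and E together, so their parts cannot be told apart. It is also not known here whether Basal and Ctr shared the medium of these treatments. A part of the medium can therefore not be told apart from that of A and E. The labelled cell type was not checked against marker genes, because the regions lie on the mouse build mm9 and were not joined to genes.

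ATAC-seq reads mark chromatin that a transposase can reach, such as promoters and enhancers. AM580 activates retinoic acid receptor alpha, a nuclear receptor that binds DNA and recruits coactivators when its ligand is present, and EPZ004777 inhibits DOT1L, the methyltransferase of histone H3 lysine 79. CHIR99021 inhibits the kinase GSK3, Forskolin raises cyclic AMP, and compound 6 inhibits the TGF-beta receptor kinase. H3K4me3 marks active promoters, H3K27me3 is placed by Polycomb, and promoters of developmental genes often carry both.

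The ATAC-seq libraries held 3346418 to 8764791 tags. 6FAE replicate 1 and C6AE replicate 2 stood apart from the other AE-containing libraries, with 1027 and 810 peaks whose -log10 q reached 1.3 (called enriched below), where the other 8 had 3810 to 15909. Replicates 1 and 2 of Ctr were also below those 8, with 3040 and 1982, and those of Basal had 6708 and 7313. The ChIP-seq libraries held 633980 to 7103488 tags, and the H3K4me3 library of C6AE was the shallowest of its mark, with 745089 tags. Intervals of shares cover counting error alone, and members are no replicates of a treatment.

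As chosen, the regions had low levels in Basal and Ctr and middling levels with AE. These are the values that the rule used. The median RPKM of the 500 regions was 14.2 in AE, 14.7 in 6FAE, 20.2 in CFAE, 12.4 in C6AE and 21.1 in C6FAE, against 6.71 in Basal and 4.77 in Ctr. Over all regions of the table the medians were 16.4, 14.3, 18.5, 12.2 and 17.7 in the AE-containing treatments, 14.6 in Basal and 11.6 in Ctr. In the AE-containing treatments the regions were therefore near the middle of the table, and in Basal and Ctr they were far below the middle. Relative to the column medians, the middle region was at -0.19 in AE, 0.03 in 6FAE, 0.12 in CFAE, 0.03 in C6AE and 0.24 in C6FAE, and at -1.01 in Basal and -1.13 in Ctr, on the log2 scale. Of the 500 regions, 482 (96.4%) were below the column median in both Basal and Ctr, as were 35.4% of all regions. Only 112 regions (22.4%) were above the column median in all 5 AE-containing treatments, close to the 21.7% of all regions. Both conditions together held for 94 of the 500 regions and for 232 of all regions.

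**Figure D1:**
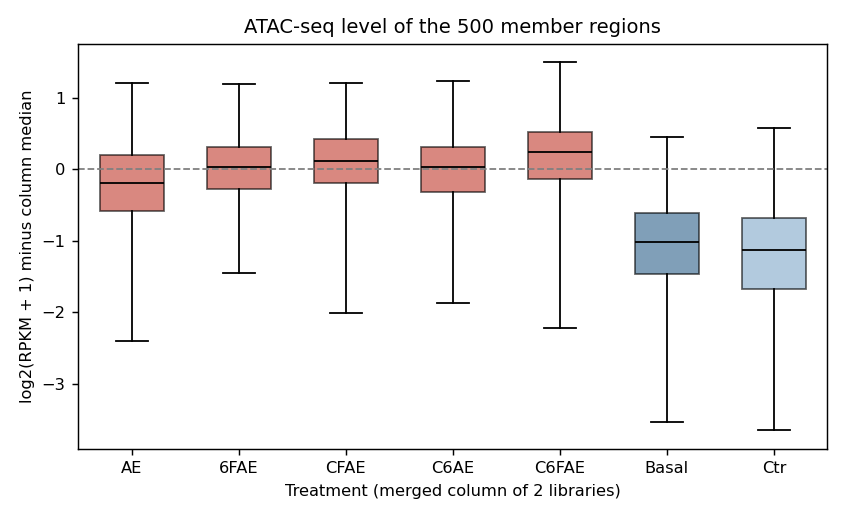
ATAC-seq level of the 500 regions in each merged column, as log2(RPKM + 1) minus the column's median over all regions (dashed line at 0). Boxes run from the lower to the upper quartile with the median as a line, and whiskers reach the lowest and highest region. The medians of the AE-containing treatments (red) lie between -0.19 and 0.24, and those of Basal and Ctr (blue) at -1.01 and -1.13.

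The scores fell quickly with rank. The highest was 1.61, the 10th was 1.20, the 100th 0.69 and the median 0.46, a 1.37-fold difference. A score of at least 1 (2-fold) was reached by 24 regions (0.0668% of all regions), while 297 of the 500 (59.4%) had a score under 0.5. The same number of regions could be found in the opposite direction. Basal and Ctr were both above all 5 AE-containing treatments by at least 1 in 18 regions (0.0501%), and by any amount in 2534 regions (7.05%), against 2113 (5.88%) with all 5 above Basal and Ctr. The opposite score of rank 500 was 0.35, and 640 regions reached the lowest score of the regions described here. The 500 regions of highest opposite score are called the mirrored regions below. Around the limit the regions differed little, with scores of 0.29 at ranks 498 to 503. Rank 500 (chr1:133012360-133013249) had an RPKM of 13.9 in AE, 15.1 in 6FAE, 17.3 in CFAE, 10.2 in C6AE, 13.5 in C6FAE, 8.81 in Basal and 6.13 in Ctr. Rank 501 (chr12:86091564-86094359), just outside, had 14.7, 16.1, 18.6, 12.0 and 23.0 in the AE-containing treatments in the same order, 9.65 in Basal and 8.27 in Ctr. In both regions all 5 AE-containing columns were above Basal and Ctr.

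**Figure D2:**
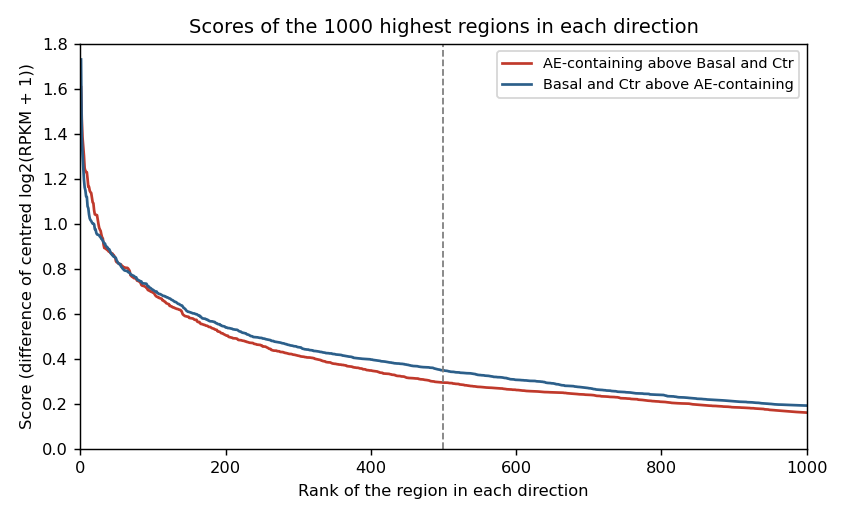
Score against rank for the 1000 highest regions in each direction, as a difference of centred log2(RPKM + 1). The dashed line is the limit of 500 regions, where the score is 0.29 with AE above (red) and 0.35 with Basal and Ctr above (blue), and the curves run close together.

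Read treatment by treatment, C6FAE stood farthest from the comparison groups and AE nearest. The shares of all regions at least 2-fold higher, given beside each count, were also highest in C6FAE and lowest in AE. At least 2-fold higher than Basal were 150 of the regions (30.0%) in AE (3.79% of all regions), 240 (48.0%) in 6FAE (6.4%), 266 (53.2%) in CFAE (6.43%), 238 (47.6%) in C6AE (7.48%) and 279 (55.8%) in C6FAE (8.29%). Against Ctr, 202 (40.4%) passed in AE (7.89%), 276 in 6FAE (8.96%), 313 in CFAE (9.37%), 276 in C6AE (9.78%) and 328 (65.6%) in C6FAE (10.3%). The rule required a higher level in every one of these comparisons, so their excess over all regions is a property of the choice. The median difference from Basal was 0.73 in AE and 1.09 in C6FAE on the log2 scale. The rule also set both Basal and Ctr low, and as chosen their median difference over the 500 regions was 0.08 (Basal minus Ctr). Basal was the higher of both in 295 regions (45.2% of all regions) and Ctr in 205 (54.8% of all regions). At least 2-fold higher in Basal than in Ctr were 33 regions (6.6%), as were 8.01% of all regions.

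Among the AE-containing treatments the regions were not equal. AE was the lowest of the 5 in 229 regions, where 26.1% of all regions have AE lowest, and C6FAE was the highest in 183, against 21.6% of all regions. The level in AE was below the mean of the other 4 in 378 regions (75.6%), with a median difference of -0.27. Over all regions that difference was -0.00308, and 50.3% were below. C6FAE was above the mean of the other 4 in the middle region by 0.16, CFAE by 0.09, and 6FAE and C6AE were at -0.02 and -0.04. The gap between the highest and the lowest of the 5 had a median of 0.78 on the log2 scale and reached at least 1 in 163 regions (32.6%), against 0.89 and 43.8% over all regions.

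The levels with and without C, 6 and F are given side by side as a description, since the same 5 columns chose the regions. AE set the lowest level in 229 regions and lacks all 3 agents, so it is among the columns without in each comparison, and 185 of the 500 regions were found again when AE was left out of the minimum. Of the merged columns, the 3 with Forskolin had a median level 0.17 above the 2 without (-0.01 over all regions), the 3 with CHIR99021 were 0.17 above those without (0.000694 over all regions), and the 3 with compound 6 were 0.11 above (0.02 over all regions). Every column with Forskolin was above every column without in 121 regions (24.2%, against 12.8% of all regions), and every column was below in 29 (5.8%, against 13.2%). For CHIR99021 the numbers were 106 above (21.2%, against 10.7%) and 21 below (4.2%, against 10.4%). For compound 6 they were 59 above (11.8%, against 10.7%) and 24 below (4.8%, against 9.85%). The columns overlap in their agents, so the 3 comparisons are not separate, and nothing about an agent is read from them.

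The single libraries gave the spread that the merged columns hide. Peaks of high score are the 20000 with the highest listed -log10 p in their library, which is not the score that ranked the regions. Such a peak lay in 36.9% ± 16.2 (SD, n = 6 libraries) of the 500 regions with Forskolin and 19.1% ± 7.77 (n = 4) without. The ranges were 9.0 to 55% and 9.8 to 28.4%, so they overlapped. With CHIR99021 the share was 33.5% ± 15 (n = 6), and without it 24.1% ± 17.6 (n = 4). With compound 6 it was 30.3% ± 19.2 (n = 6) and 28.9% ± 11.6 without (n = 4). In all 3 comparisons the libraries with and without the agent overlapped. The share of all regions was 39.4% ± 10.1 with Forskolin and 31.5% ± 7.36 without, 36.9% ± 9.66 with CHIR99021 and 35.1% ± 10.8 without, and 33.9% ± 11.7 with compound 6 and 39.6% ± 4.58 without. It thus moved in the direction of the members for Forskolin and CHIR99021 and in the opposite direction for compound 6, and the part of library quality was not tested. No p is given, since the regions were chosen on the merge of the same libraries.

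**Figure D3:**
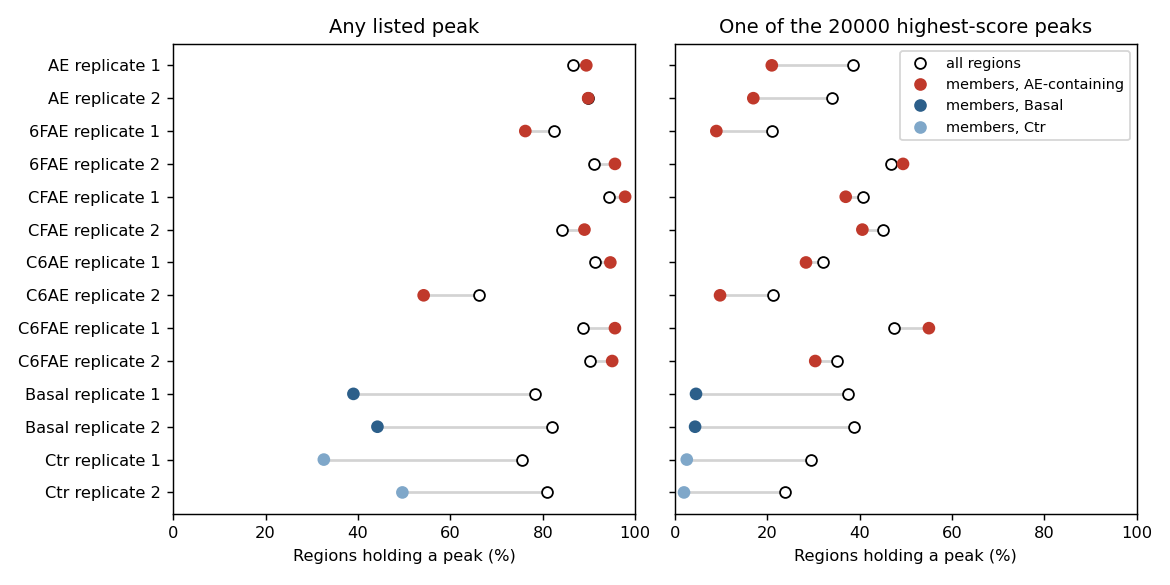
Share of regions holding a peak in each of the 14 ATAC-seq libraries, for any listed peak (left) and for the 20000 peaks of highest score of that library (right). Filled points are the 500 regions and open points all regions. In the Basal and Ctr libraries the 500 regions lie at 32.6 to 49.6% on the left and 2.0 to 4.6% on the right, below all regions in each library.

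The peak lists give each library apart, although they came from the same libraries as the merged columns and are not independent of the choice. The authors called these peaks at a permissive p threshold of 0.05, so the lists hold many weak peaks. In replicates 1 and 2, listed peaks overlapped 89.4 and 89.8% of the 500 regions in AE (86.6 and 89.7% of all regions), 76.2 and 95.6% in 6FAE (82.4 and 91.2%), 97.8 and 89.0% in CFAE (94.3 and 84.2%), 94.6 and 54.2% in C6AE (91.4 and 66.1%) and 95.6 and 95% in C6FAE (88.6 and 90.2%). In Basal they overlapped 39.0 and 44.2% (78.2 and 81.9%), and in Ctr 32.6 and 49.6% (75.5 and 80.8%). In the 4 Basal and Ctr libraries the 500 regions thus held fewer peaks than regions in general. In the AE-containing libraries they held a like or higher share, except in 6FAE replicate 1 and in C6AE replicate 2, whose 54.2% was close to the 49.6% of Ctr replicate 2. The mirrored regions went the other way, with 83.2 to 88.0% in Basal and Ctr and 36.6 to 80.2% in the AE-containing libraries. Both libraries of a treatment listed a peak in 456 of the 500 regions (91.2%) in C6FAE (83.3% of all regions) and 436 (87.2%) in CFAE (82.1%). In AE the number was 411 (82.2%), close to all regions (81.2%). It was below all regions in 6FAE, with 365 (73.0 against 77.4%), and in C6AE, with 255 (51.0 against 62.8%). In Basal it was 132 (26.4 against 70.4%) and in Ctr 105 (21.0 against 66.2%). The low counts of 6FAE and C6AE go with replicate 1 of the first (76.2% of the regions) and replicate 2 of the second (54.2%), the libraries with the fewest enriched peaks.

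Peaks of high score were rarer. Over both replicates they lay in 21.0 and 17.0% of the 500 regions in AE (38.5 and 34.1% of all regions), 9.0 and 49.4% in 6FAE (21.1 and 46.8%), 37.0 and 40.6% in CFAE (40.7 and 45.1%), 28.4 and 9.8% in C6AE (32 and 21.2%) and 55 and 30.4% in C6FAE (47.4 and 35.2%). In Basal the shares were 4.6 and 4.4% (37.6 and 38.8%), and in Ctr 2.6 and 2.0% (29.5 and 23.8%). Only in C6FAE replicate 1 and 6FAE replicate 2 did the 500 regions exceed the table, and in the other 12 libraries, both AE libraries among them, they were below it. In the Basal and Ctr libraries, 444 of the regions held no such peak (38.1% of all regions). A high-score peak in all 10 AE-containing libraries was held by 3 of the 500 regions (6.89% of all regions). None in any of the 10 was held by 23 regions (4.6%), against 12.0% of all regions.

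A listed peak in all 10 AE-containing libraries was found at 196 of the regions (49.6% of all regions), and no listed peak in the 4 others at 136 (3.36%). Both together held for 11 of the 500 regions, of 20 such regions in the whole table (0.0557%). At least 8 AE-containing libraries and none of the others held for 76 regions (0.726%). The 11 regions were spread over the list, from rank 3 to rank 405, and 1 of them, rank 83 (chr3:80717106-80717830), lay in a region of the H3K4me3 table. Rank 24 (chr3:38047914-38048742) had an RPKM of 10.9 in AE, 17.3 in 6FAE, 26.1 in CFAE, 9.63 in C6AE and 21.5 in C6FAE, with 1.26 in Basal and 3.25 in Ctr. Its listed peaks were 1.73- to 2.99-fold over the background that MACS modelled. Rank 239 (chr11:8711023-8712202) had 8.61, 12.0, 19.2, 15.6 and 22.9 in the same order, with 3.25 in Basal and 4.03 in Ctr. These regions were named for their peaks after their values were seen.

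Members with and without peaks in the comparison groups differed in size and level. The 136 regions with no listed peak in Basal and Ctr had a median length of 759 bp and median RPKM of 4.00 in Basal and 2.52 in Ctr. The 70 regions with a listed peak in all 4 libraries had a median length of 2221 bp and RPKM of 11.2 and 8.44. A longer region has more room for a listed peak, and the part of length was not tested. The median score fell from 0.56 in the first group to 0.37 in the last.

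The 15 regions of highest score were short and lay outside both histone tables. Their lengths ran from 500 to 1866 bp, with a median of 657 bp, and none of them held a row of the H3K4me3 or the H3K27me3 table. In 9 of the 15 no Basal or Ctr library listed a peak. Counted over all 15, 5 regions had a listed peak in 9 or 10 AE-containing libraries. Ranks 12 and 14, which are among these 5, also had a listed peak in Ctr replicate 2. Across the 15, RPKM ran from 7.20 to 33.5 in AE, 8.12 to 19.2 in 6FAE, 15.6 to 42.8 in CFAE, 5.74 to 25.6 in C6AE and 11.8 to 48.6 in C6FAE, and from 1.41 to 7.07 in Basal and 0 to 6.49 in Ctr.

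The first region (chr14:61583057-61584017) had an RPKM of 7.20 in AE, 11.6 in 6FAE, 15.6 in CFAE, 5.74 in C6AE and 20.2 in C6FAE, against 1.41 in Basal and 0.922 in Ctr. Its score was 1.61, and 8 of the 10 AE-containing libraries listed a peak there, 1.76- to 2.83-fold over background. The 2 libraries that did not were 6FAE replicate 1 and C6AE replicate 2. Its levels were below the column medians in all treatments except C6FAE, so its high score rested on the very low comparison groups. The region of rank 2 (chr1:152965641-152966163), of 523 bp, was listed at 0 in Ctr, with 3.20 in Basal, 12.9 in AE and 8.82 in C6AE, and 6 AE-containing libraries listed a peak.

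The region of rank 3 (chr9:92098673-92099706) was the clearest of the 15 in its single libraries. It had an RPKM of 20.4 in AE, 18.6 in 6FAE, 35.2 in CFAE, 25.6 in C6AE and 25.2 in C6FAE, against 6.33 in Basal and 1.46 in Ctr. All 10 AE-containing libraries and none of the others listed a peak, 1.83- to 3.89-fold over background, and in 5 libraries it was among the 20000 of highest score. All 5 merged levels were above their column medians.

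Other regions differed in which treatment was strongest. Rank 12 (chr6:21931118-21931686) was highest in C6AE with an RPKM of 25.3, next to 22.5 in AE, 21.9 in CFAE, 14.8 in 6FAE and 14.8 in C6FAE, with 2.74 in Basal and 3.74 in Ctr. Rank 9 (chr15:28010142-28011428) was highest in C6FAE with 28.5, next to 19.2 in CFAE, 12.5 in 6FAE, 11.5 in AE and 10.5 in C6AE, with 3.37 in Basal and 2.84 in Ctr. Rank 14 (chr5:73277819-73278459) had the highest levels of the 15 in AE, 6FAE, CFAE and C6FAE, with 33.5, 19.2, 42.8 and 48.6, and the highest comparison levels too, with 7.07 in Basal and 6.49 in Ctr. At rank 14 all 10 AE-containing libraries listed a peak, and so did Ctr replicate 2. At rank 6 (chr14:9250967-9251489) AE was the highest column, with 21.0, next to 19.7 in CFAE, 19.5 in C6FAE, 13.0 in 6FAE and 11.7 in C6AE, and with 4.99 in Basal and 2.78 in Ctr. No single treatment led all 15 regions. Over the 15, the median RPKM was highest in C6FAE (23.6) and CFAE (21.9). It was 14.8 in 6FAE, 13.2 in AE and 11.2 in C6AE, without regard to the column medians.

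**Figure D4:**
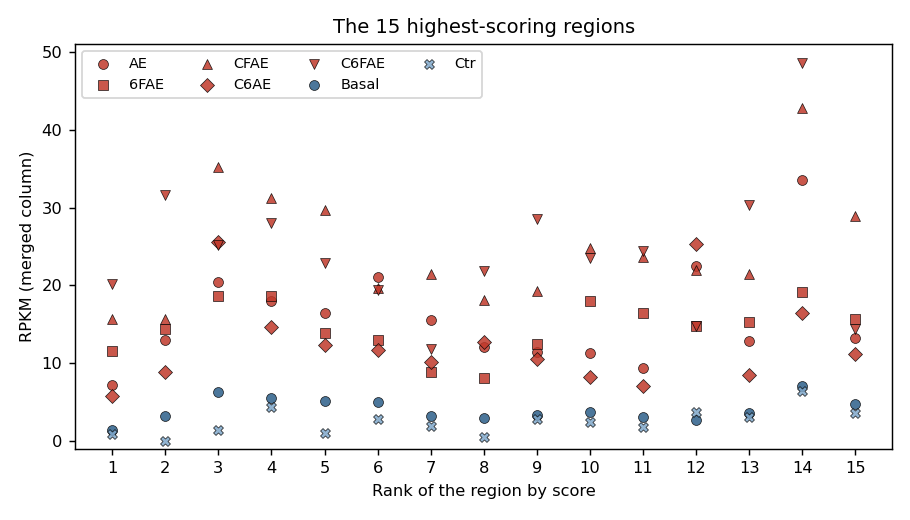
RPKM in the 7 merged ATAC-seq columns for the 15 regions of highest score. Red symbols are the AE-containing treatments and blue symbols Basal and Ctr. In every region all red symbols lie above both blue ones, which the rule required, and the order of the red symbols changes between regions.

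The regions were shorter than the table and scattered. Their median length was 1121 bp (500 to 5940 bp), against 1483 bp over all regions and 840.5 bp for the mirrored regions, and 43.8% were under 1000 bp, against 32.9%. The nearest other member lay within 50 kb for 21 regions (4.2%), in 10 groups. Among the mirrored regions 26 (5.2%) had another of their set as near. The group of 3 lay on chromosome 5 from 39501037 to 39520821, over 19.8 kb, with ranks 127, 279 and 351. Members made up 2.25% of the regions of chromosome 13 and 2.02% of chromosome 14, the highest shares, and 0.846% of chromosome 17 and 0.861% of chromosome 11, the lowest.

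The histone tables are independent of the rule, but with 1 library per treatment and mark they allow no test. Few of the regions lay at H3K4me3. Of the 500, 70 (14%, 95% Wilson interval 11.2 to 17.3%) overlapped a region of the H3K4me3 table, against 30.9% of all ATAC-seq regions. The gap differed with length and was absent in short regions. Under 1000 bp the shares were 5.48% of the members and 5.54% of all regions, from 1000 to under 2000 bp 16.7 and 21.1%, and at 2000 bp or more 29.2 and 60.5%. The region nearest in the H3K4me3 table lay at a median of 59102 bp from a member and 21051 bp from any region. H3K27me3 was different, with 56 members (11.2%, 8.73 to 14.3%) in its table, against 9.38% of all regions. Under 1000 bp the members were fewer (5.48 against 9%), and from 1000 bp they were more (14.1 against 9.40%, and 19.1 against 9.71% at 2000 bp or more). Neither table held a region overlapping 415 members (83.0%), against 64.0% of all regions. The tables do not hold every peak of the single libraries, which are given below.

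Members with H3K4me3 were often those with H3K27me3. Of the 70 members in the H3K4me3 table, 41 (58.6%) were also in the H3K27me3 table, where 13.6% of all ATAC-seq regions with H3K4me3 were. By length the shares were 68.8% (22 of 32) against 18.4% from 1000 to under 2000 bp and 53.8% (14 of 26) against 11.4% at 2000 bp or more. Under 1000 bp the share was 5 of 12 members (41.7%, 95% Wilson interval 19.3 to 68.0%) against 25.1%, so that a difference was not detectable there. It was also found among regions of like H3K4me3 level in Basal (RPKM 10.4 to 17.2), at 73.5% of 34 members against 21.6% of all. Of all 500 members 41 (8.2%) were in both tables, against 4.2% of all regions, and none of the 500 mirrored regions was. Neither presence in both tables nor this level shows that both marks lay on the same chromosome copies.

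At these 41 regions H3K4me3 was higher with AE than in Basal, relative to the column medians. The mean of the 5 treatments minus Basal had a median of 0.47 on the log2(RPKM + 1) scale, and it was above 0 in 38 of 41. By treatment the median difference was 0.31 in AE, 0.08 in 6FAE, 0.37 in CFAE, 0.87 in C6AE and 0.67 in C6FAE. All 5 treatments were above Basal in 22 of the 41 (53.7%), against 25.6% of all regions in both tables. At the 29 members with H3K4me3 alone the median was -0.05, and 12 were above 0, close to all regions with H3K4me3 alone (-0.04). The difference at regions in both tables was partly shared by the whole table. Its median over all regions in both tables was 0.14, and at like H3K4me3 level in Basal (RPKM 9.34 to 13.8) it was 0.35 over all of them and 0.49 over the 21 members. Without C6AE, whose library was the shallowest, these values were 0.23 and 0.38. Over all 70 members with H3K4me3 the median difference was 0.21 and 50 were above 0, against -0.02 and 45.1% of all regions. Without centring it was 0.039, since the column medians of H3K4me3 ran from 11.1 in 6FAE to 24.8 in C6AE with 17.8 in Basal.

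**Figure D5:**
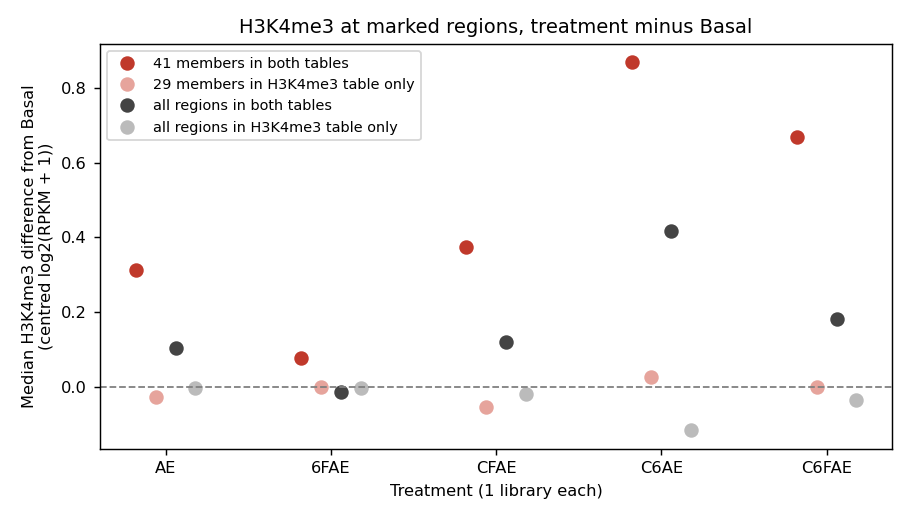
Median difference of H3K4me3 from Basal in each AE-containing treatment, as centred log2(RPKM + 1), with 1 library per treatment. Points are medians over the 41 members in both histone tables (dark red), the 29 members in the H3K4me3 table alone (light red) and all regions of the same kinds (dark and light grey). The 41 members range from 0.08 in 6FAE to 0.87 in C6AE and are the highest of the 4 groups in each treatment.

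Enriched H3K4me3 peaks did not separate Basal from the treatments. They overlapped 17.0% of the 500 regions in AE (37.4% of all regions), 16.8% in 6FAE (35.2%), 22.4% in CFAE (40.2%), 18.2% in C6AE (35.9%), 15.6% in C6FAE (33.7%) and 18.0% in Basal (38.6%). No such peak lay in any of the 6 libraries at 359 regions (71.8%, against 52.9% of all regions). A peak in all 5 AE-containing libraries and not in Basal was held by 1 region (0.2%, against 0.0362% of all regions). The reverse, a peak in Basal and in none of the 5, was held by 4 (0.8%, against 1.48%). The difference of H3K27me3 from Basal at the members was close to that of the table. The mean of the 5 minus Basal had a median of -0.22 over 56 members and -0.15 over all regions. At like level in Basal it was -0.26 over 28 members and -0.28 over all. Enriched H3K27me3 peaks overlapped 5.8% of the members in Basal (Wilson interval 4.07 to 8.21%), against 3.97% of all regions. In AE they overlapped 6.0% (4.23 to 8.44%) against 5.15%, and in C6AE 8.0% (5.93 to 10.7%) against 6.46%. In 6FAE, CFAE and C6FAE no member held such a peak, which allows a share of up to 0.762% (Wilson). These libraries had only 74, 136 and 82 such peaks in all, which lay in 0.0501, 0.0863 and 0.0863% of all regions.

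The members with the most H3K4me3 were taken by the mean RPKM of the 5 AE-containing libraries, without centring. Of these, rank 29 (chr13:49242635-49243523) was in both tables. Its H3K4me3 RPKM was 13.2 in Basal, 19.2 in AE, 13.5 in 6FAE, 16.3 in CFAE, 58.8 in C6AE and 16.7 in C6FAE, and all 5 were above Basal. Its place rested on C6AE, the shallowest library of this mark. In every other library its H3K4me3 RPKM was below that of rank 493. Its ATAC-seq RPKM was 28.6 in AE, 26.4 in 6FAE, 26.0 in CFAE, 18.0 in C6AE and 27.2 in C6FAE, against 10.1 in Basal and 7.16 in Ctr. This was the highest-scoring of the 6 members named for their histone levels, and its ATAC-seq level was above the column median in all 5 treatments. Rank 493 (chr2:52716218-52719669) had a H3K4me3 RPKM of 23.6 in Basal and 27.3 in AE, and rank 169 (chr3:143861436-143861959) had 23.9 and 23.7. The H3K4me3 values of rank 169 are those of a marked region from 143859898 to 143870192, far longer than the member. Over that marked region they were alike in Basal and AE, while the member's ATAC-seq RPKM was 9.33 in Basal and 20.2 in AE. The H3K4me3 level within the member alone was not measured.

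The members with the most H3K27me3 lay in long marked regions. Rank 167 (chr9:24577975-24579852) lay in a H3K27me3 region from 24567218 to 24588817, with an RPKM of 16.4 in Basal, 13.3 in AE, 15.1 in 6FAE, 8.22 in CFAE, 7.30 in C6AE and 6.46 in C6FAE. Its ATAC-seq RPKM was 18.6 in AE and 23.1 in C6FAE, against 9.92 in Basal and 5.97 in Ctr. Rank 58 (chr19:25696721-25698078) lay in one from 25658608 to 25706766, with 14.6 in Basal and 6.21 to 13.7 in the AE-containing libraries. Rank 244 (chr16:17914550-17915665) had 17.7 in Basal and 3.68 to 15.3 with AE. In all 3 the deposited H3K27me3 RPKM was lower than Basal in each AE-containing library, and the column medians of H3K27me3, 2.50 to 5.18 with AE and 4.75 in Basal, moved as well.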

How the data were processed

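ATAC-seq and ChIP-seq of MEFs on day 4 were analysed. Per the labels, the authors used Bowtie2, MACS2 and deepTools 3.1.0 with mm9. The deposited ATAC-seq, H3K4me3 and H3K27me3 tables hold RPKM with 1 column per treatment, merged over the ATAC-seq libraries. The deposited peak lists of MACS 2.1.2 hold, per library, the -log10 p and -log10 q, the fold enrichment and the pileup signal of tags of 150 bp extended to 250 bp. The file headers say that q was not calculated, yet the lists hold a column of it, which was used as listed.

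The computations ran in Python 3.11.15 (pandas 2.3.3, numpy 2.4.6 and, for intervals, scipy 1.17.1), figures were drawn in matplotlib 3.10.9, and the pseudocount was 1. Peaks and histone regions belonged to a region at an overlap of 1 bp or more. The column median was taken over chromosomes 1 to 19. Regions were named by rule: the 15 of highest score, 3 on each side of the limit, and the 3 with the most H3K4me3 and H3K27me3. The members and the lists were chosen with earlier results of these data known. The planned permutation tests of Forskolin, CHIR99021 and compound 6 are not reported as tests, because the members were chosen on the same libraries. Sequences, motifs and neighbouring genes were not analysed here, since no mm9 genome was used. Intervals cover counting error only. The ranking and overlap steps were tested on simulated data.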

Additional observations from a re-analysis of the deposited data

How the results depend on the processing

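The choice of regions depended on the scaling and on each treatment required. Of the 500 regions, 304 were found again with no centring, 171 with Basal alone, 104 with Ctr alone, 185 with the minimum taken without AE and 185 with means in place of minimum and maximum, and 357 to 498 under the other 11 alternatives. A score of at least 1 was reached by 43 regions with a pseudocount of 0.1, 0 with 10, 55 with no centring and 37 after quantile normalization, against 24. The 11 regions with peaks in all 10 AE-containing libraries and no other became 0 with enriched peaks, 1 with the 20000 of highest score and 2 with 50% of the region covered, and 11 to 32 when 1 library was left out (32 without C6AE replicate 2, 25 without Ctr replicate 2, 20 without Basal replicate 2). The 3 regions with a high-score peak in all 10 became 1 with enriched peaks, 196 with all listed peaks and 5 with 40000. The H3K4me3 difference of 0.21 was 0.039 with no centring and 0.15 with a pseudocount of 10, and that of H3K27me3 (-0.22) was -0.58, -0.12 and, with the C6AE library left out, -0.10. Histone overlaps kept their share within its interval.

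Leaving out 1 library gave differences of 14.2 to 23.4 percentage points for Forskolin (highest without 6FAE replicate 1), 4.4 to 17.9 for CHIR99021 and -3.5 to 5.7 for compound 6. With all listed peaks Forskolin gave 9.53, CHIR99021 -0.05 and compound 6 -6.3. With 10000 peaks Forskolin gave 7.6, and with 40000 it gave 22.8 and compound 6 -3.67. As share of members minus share of all regions, the 3 differences were 9.94, 7.62 and 7.12. With 1 library of AE left out compound 6 gave -1.2 and -2.53, without 6FAE replicate 2 -2.38 and without C6FAE replicate 1 -3.5. Pairing by replicate number as a block left the differences at 17.9, 9.43 and 1.43, by construction. Replicate 1 was higher in AE, C6AE and C6FAE and replicate 2 in 6FAE and CFAE. This order cannot show whether libraries of the same number were prepared together. The alternatives on libraries left out of the histone values, on the rows of the median and on shares relative to all regions were added after seeing the data. The motif window was not run.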
